A study of Mus musculus with 6 samples.

Results

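The small leucine-rich proteoglycans of bone matrix were examined as 8 genes: Omd, Ogn, Aspn, Bgn, Dcn, Lum, Fmod and Prelp. Probes were assigned to them by gene symbol through the RefSeq transcript that the array gives for each probe. This gave 1 probe for each of 7 genes, out of 39429 different non-control probes on the array. Prelp was not analysed here. The cells were MC3T3-E1, an established mouse pre-osteoblast line, grown for 3 days in 24-well plates on a scaffold. For De-HA (n = 3) the material was dealloyed and then coated with bioactive substances. For FeMnSi (n = 3) it was the original scaffold, whose name gives the symbols of iron, manganese and silicon. No untreated culture on plastic entered the comparison, so each value is De-HA relative to FeMnSi, and both groups share the line, the seeding and the day. The RNA of each sample, amplified and carrying the dye Cy3, was put on 1 one-colour Agilent array. The labels do not say whether the 3 samples of a group were separate cultures, so errors and p-values here reflect sample-to-sample spread alone, which may be technical. The genes were chosen by the difference of their log2 processed signals between De-HA and FeMnSi, and their own differences are therefore given as a description, without a test.

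Small leucine-rich proteoglycans are secreted proteins built on a curved core of leucine-rich repeats, most of which bind fibrillar collagen and affect how fibrils grow and space themselves. Biglycan (Bgn) and decorin (Dcn) carry chondroitin or dermatan sulfate chains. Fibromodulin (Fmod), lumican (Lum) and osteomodulin (Omd, also called osteoadherin) can carry keratan sulfate and sulfated tyrosines, asporin (Aspn) has a run of aspartates in place of a chain, and osteoglycin (Ogn, also called mimecan) belongs to a shorter class. In bone, osteomodulin is a product of mature osteoblasts that binds hydroxyapatite, and biglycan, decorin and asporin are also known to bind growth factors of the TGF-beta and BMP group.

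Between 63.5% and 74.4% of probes were well above background per array, with the lowest share on De-HA 1, and the 75th percentile of the processed signal was 582 to 720. No spot was saturated. Values below are the processed signal, a linear brightness, or its log2 minus the array's 75th percentile, called the scaled log2 signal. Brightness also depends on each probe's own binding, so levels of different genes are not ranked against each other. By scan time the arrays formed 2 sets, taken as slides: slide 1 held the 3 De-HA arrays and FeMnSi 1, and slide 2 held FeMnSi 2 and 3. Over all 15535 genes tested, 1669 (10.7%) passed an adjusted p of 0.05 (limma, Benjamini-Hochberg), 1003 higher (6.46%) and 666 lower (4.29%) in De-HA. The median difference of all genes was 0.10 on the log2 scale, and it was -0.01 after quantile normalization, so small differences are read against that shift. A slide block in the fit left 180. A fit without FeMnSi 1 sets De-HA arrays on slide 1 against FeMnSi arrays on slide 2. Wherever a gene passed in that fit, material and slide cannot be told apart. The cells expressed osteoblast genes on both scaffolds: Runx2, Sp7 and Col1a1 were well above background on all 6 arrays. All 8 osteoblast markers passed the background filter, which asks for 3 of 6 arrays. RNA came from whole cultures, in which fewer cells of a type and less RNA per cell cannot be told apart.

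Omd, Ogn and Aspn lie next to each other on mouse chromosome 13 and were higher in De-HA by 5.19-fold, 1.99-fold and 1.77-fold. In the RefSeq order of genes (assembly GRCm38.p6) the run is Ecm2, Aspn, Omd and Ogn, all inside the span of Cenpp, a centromere protein gene on the opposite strand. The 250 bases before the RefSeq start of each of the 3 are shown because these genes were higher together. Capitals mark matches to 4 short motifs searched on both strands: a TATA box (TATAAA), the core of a RUNX site (TGTGGT), an AP-1 site (TGANTCA) and a CCAAT box (CCAAT). All 3 windows are on the plus strand, at chr13:49582212-49582461 for Omd, chr13:49607765-49608014 for Ogn and chr13:49544193-49544442 for Aspn, taken from RefSeq for GRCm38.p6.
Omd: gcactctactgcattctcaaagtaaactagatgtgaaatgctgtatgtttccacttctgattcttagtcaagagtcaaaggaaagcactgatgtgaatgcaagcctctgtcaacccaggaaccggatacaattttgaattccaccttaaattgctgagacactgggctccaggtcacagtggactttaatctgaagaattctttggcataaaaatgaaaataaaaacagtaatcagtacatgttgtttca
Ogn: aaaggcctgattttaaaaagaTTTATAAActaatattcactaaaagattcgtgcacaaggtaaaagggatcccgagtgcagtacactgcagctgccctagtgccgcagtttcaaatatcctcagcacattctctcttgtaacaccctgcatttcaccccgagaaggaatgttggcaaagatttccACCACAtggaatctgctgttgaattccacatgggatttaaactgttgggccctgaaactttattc
Aspn: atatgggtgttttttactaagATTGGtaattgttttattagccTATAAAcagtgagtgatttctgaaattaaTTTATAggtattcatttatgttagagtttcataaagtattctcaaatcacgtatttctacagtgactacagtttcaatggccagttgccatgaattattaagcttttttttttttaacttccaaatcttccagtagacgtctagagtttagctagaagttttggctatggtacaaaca
The Omd window held none of the 4 motifs. The Ogn window held 1 RUNX core on the minus strand and 2 TATA-box matches, which overlap because TTTATAAA reads as TATAAA on either strand. The Aspn window held 2 TATA-box matches that do not overlap and 1 CCAAT box on the minus strand. Counted in bases from the RefSeq start, the first TATA match began at -229 for Ogn and -207 for Aspn, near the far end of each window. Of 32851 such windows in the mouse table, 12.4% held the TATA letters, 14.0% the RUNX core, 6.7% the AP-1 letters and 33.8% the CCAAT letters. The share of G and C was 38.4% before Omd, 42.0% before Ogn and 30.0% before Aspn, against a median of 52.4% over all windows. It was 40.0% before Ecm2, which lies in the same run and did not pass the test. It was 64.4% before Bgn, 51.2% before Fmod and 55.6% before Prelp. Windows were matched for 6 of the 8 genes, Dcn and Lum not among them. The matches describe letters only, and no binding was measured.

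Omd showed the widest separation of the 7. Its probe (A_51_P342926, transcript NM_012050) gave processed signals of 1715, 2305 and 1623 for the De-HA replicates in order, and of 412, 373 and 420 for those of FeMnSi. The lowest De-HA array thus stood far above the highest FeMnSi array, and the groups did not overlap. The mean scaled log2 signal was 1.59 ± 0.20 (SD, n = 3) in De-HA and -0.79 ± 0.14 (SD, n = 3) in FeMnSi, a difference of 2.37 ± 0.13 (SE). This was the largest positive difference among the 15535 genes, and its place was 1 to 4 under the other processing settings. On slide 1 alone, where only FeMnSi 1 stands for its group, the difference was 2.25. De-HA 2 was the highest array for this probe.

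Ogn, whose protein is found in bone and connective tissue matrix, had a smaller difference. Its probe (A_51_P295085, NM_008760) read 4395, 4934 and 4005 in De-HA and 2046, 2923 and 2588 in FeMnSi. The groups did not overlap, and FeMnSi 1 was the lowest array. The scaled difference was 0.99 ± 0.12 (SE), with means of 2.84 ± 0.07 (SD, n = 3) and 1.85 ± 0.19 (SD, n = 3), and it was 1.19 on slide 1. Aspn, which binds collagen and calcium, read 22511, 21591 and 18550 in De-HA and 11549, 14745 and 13276 in FeMnSi on its probe (A_51_P142813, NM_025711). Again no FeMnSi array reached the lowest De-HA array, and FeMnSi 1 was the lowest. The scaled difference was 0.83 ± 0.098 (SE), with means of 5.07 ± 0.09 (SD, n = 3) and 4.24 ± 0.11 (SD, n = 3). It was 0.93 on slide 1 and 0.59 after quantile normalization. Ranked by difference, Ogn and Aspn were 168th and 343rd of 15535. Under the other settings Ogn ranged from place 63 (slide block) to 530 (without FeMnSi 1). Aspn ranged from place 165 (normexp) to 854 (no filter on dim probes, among 20590 genes).

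**Figure D1:**
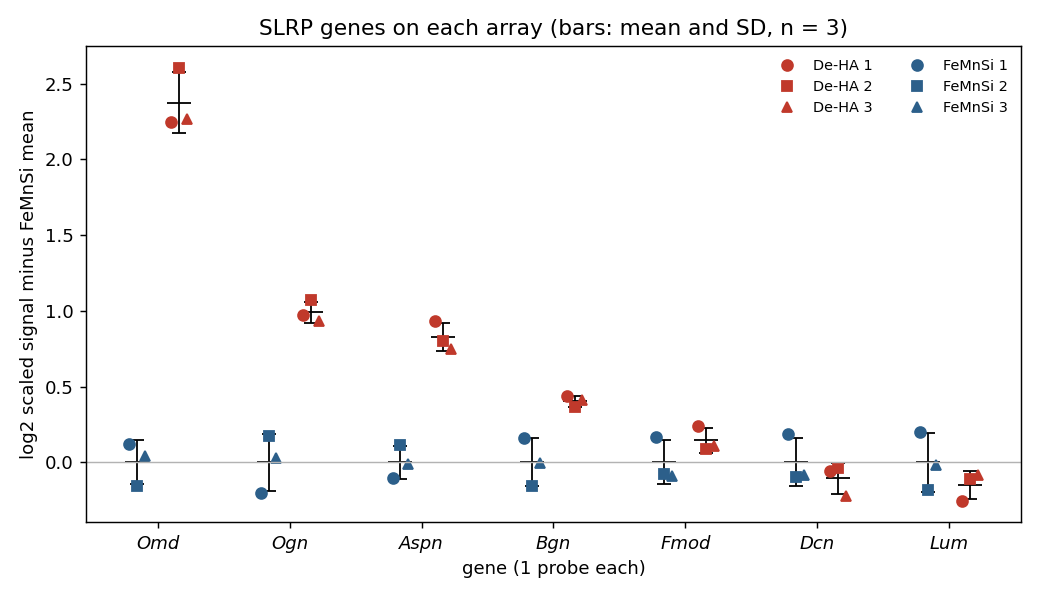
Scaled log2 signal of the 7 measured small leucine-rich proteoglycan (SLRP) genes on each of the 6 arrays, drawn on the y axis as the distance from the gene's FeMnSi mean, 1 point per array, with bars for the mean and SD of each group (n = 3). Omd, Ogn, Aspn and Bgn have no overlap between the groups, while Fmod, Dcn and Lum overlap.

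Bgn was modestly higher and Fmod was near the same level in both groups. Biglycan is abundant in bone matrix and carries glycosaminoglycan chains on its N-terminal part. Its probe (A_52_P162486, NM_007542; gene on chromosome X) read 972, 969 and 890 in De-HA and 843, 744 and 810 in FeMnSi. The groups were apart by a small gap. The difference of the scaled log2 means was 0.40 ± 0.10 (SE), or 1.32-fold, and it was 0.24 on slide 1. Fmod, which encodes a regulator of collagen fibril assembly and crosslinking, read 4150, 3924 and 3535 in De-HA and 4149, 3853 and 3739 in FeMnSi (A_51_P207622, NM_021355). These ranges overlap almost wholly. The scaled difference of 0.14 ± 0.11 (SE) was close to the median of all genes, 0.10, and was -0.02 on slide 1.

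Dcn and Lum, neighbours on chromosome 10, did not share the higher signal of the chromosome 13 genes. Decorin, the prototype of the family and a collagen I binder, read 6477, 6873 and 5383 in De-HA and 8027, 7255 and 7201 in FeMnSi (A_51_P334104, NM_007833). Every De-HA signal was below every FeMnSi signal before scaling, but the scaled values overlapped, with a difference of -0.11 ± 0.11 (SE). Lumican, known for fibril spacing in the cornea and also present in bone, read 17146, 19867 and 18013 in De-HA and 24641, 20733 and 22895 in FeMnSi (A_51_P167527, NM_008524). It followed Dcn: apart and lower before scaling, overlapping after it, with a scaled difference of -0.15 ± 0.12 (SE). On slide 1 the differences were -0.29 for Dcn and -0.35 for Lum.

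How far Dcn and Lum were from equal depended on the scaling. After quantile normalization the differences were -0.27 for Dcn and -0.39 for Lum, and the groups were apart. The same held in the authors' series matrix, with -0.27 and -0.38. With each array shifted by its median they were -0.19 and -0.23, and with another background correction (normexp) -0.15 for both, with overlap in each case. Among all genes, 13.7% were lower in De-HA with the groups apart on the 75th percentile scale, 22.6% without scaling, 20.5% after quantile normalization and 20.4% in the matrix. In contrast, Omd, Ogn, Aspn and Bgn were higher with the groups apart in all 7 sets of values compared. The sets were unscaled, 75th percentile, quantile, median, matrix, normexp and outlier spots kept. Over the 7 sets, 10.6% (unscaled) to 29.3% (normexp) of all genes were also higher and apart. Fmod overlapped in each of the 7, and its sign turned, from 0.14 on the 75th percentile scale to -0.02 without scaling.

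**Figure D2:**
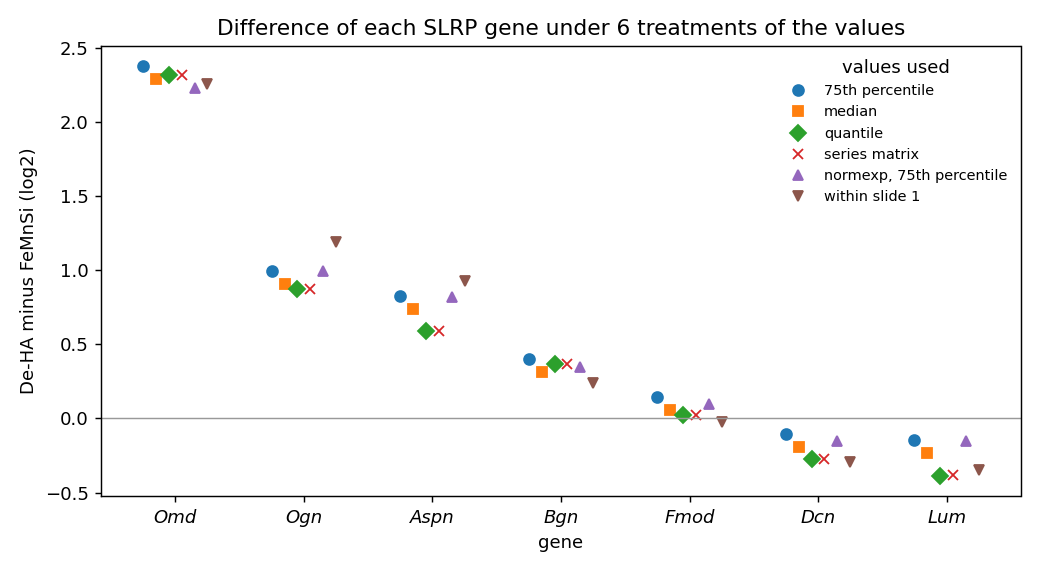
Difference between the De-HA and FeMnSi means (log2) of each of the 7 genes under 6 treatments of the values: 75th percentile, median and quantile scaling, the series matrix, normexp and slide 1 alone. Omd lies between 2.23 and 2.37, and Dcn and Lum are below 0 under each of the 6, farther below after quantile normalization than on the 75th percentile scale.

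Counted together, 4 of the 7 measured genes were higher with no overlap between groups, 3 overlapped and 0 were lower on the main scale. Of all genes, 25.4% were higher and 39.1% apart in either direction. The rule used this contrast, so nothing is read from the counts. The median difference of the 7 was 0.40 on the log2 scale, beside 0.10 over all genes. All 7 were well above background on all 6 arrays, so none entered through 1 group alone. Each has 1 spot per array, and other probes with at least 5 spots and a signal over 100 had a median within-array SD of 0.041 to 0.070 log2 units.

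Ratios of 2 genes within an array stay the same when all log2 values of that array are shifted by a constant. Quantile normalization is not such a shift and can change them. It moved the group difference of Omd from 2.37 to 2.31 and that of Lum from -0.15 to -0.39. The ratio of Omd to Lum signal, set to a FeMnSi mean of 0 on the log2 scale, was 2.50, 2.72 and 2.35 on the De-HA arrays, or 5.75-fold (mean 2.52 ± 0.18, SD, n = 3). Omd to Dcn was 5.58-fold (2.48 ± 0.17, SD, n = 3). Having the largest rise of all genes tested, Omd had to stand above its 2 neighbours on the chromosome. Omd to Ogn was 2.61-fold (1.38 ± 0.14, SD, n = 3) and Omd to Aspn 2.92-fold (1.55 ± 0.24, SD, n = 3). Aspn to Ogn was -0.16 ± 0.11 (SD, n = 3) and Dcn to Lum 0.04 ± 0.17 (SD, n = 3). Within the chromosome 13 run the differences were thus unequal for Omd against its neighbours, while the Dcn to Lum ratio differed by less than the spread between De-HA arrays. A ratio does not show that either gene stayed level.

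Across the 6 arrays the genes differed in how closely they followed Omd, as a description of values that share arrays and scaling. Pearson's r was 0.96 for Omd with Ogn, 0.96 for Omd with Aspn, 0.99 for Aspn with Ogn and 0.92 for Omd with Bgn. For Omd with Fmod it was 0.60, with Lum -0.44 and with Dcn -0.37. With group means removed, which leaves only variation between replicates, Aspn with Ogn was 0.70, but Omd with Ogn was -0.25, Omd with Aspn -0.59, Bgn with Ogn -0.97 and Aspn with Bgn -0.65. The high values over the 6 arrays therefore carry the group difference. The 5 genes most like Omd over the 6 arrays were Tmem91, S100b, Parva, Epha2 and Gm10638, with r of 0.998 to 0.999. The 5 most opposite were Tmem135, Fosl1, Vav3, Ugt1a6a and Spp1, the osteopontin gene, with r of -0.997 to -0.999. Their differences between the groups were 1.32 for S100b, 0.68 for Parva, -1.10 for Fosl1 and -1.09 for Spp1.

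Genes beside the members on their chromosomes differed in both directions. Omd had the largest rise of all genes tested, so that each neighbour stood below it carries no information. Within 3 protein-coding genes on each side, 24 neighbours were listed and 15 tested, and 1 passed the adjusted p of 0.05, beside 10.7% of all genes. On chromosome 13, Ecm2, a leucine-rich repeat matrix protein gene next to Aspn, was dim: 70.7, 116 and 107 in De-HA and 62.1, 73.7 and 82.9 in FeMnSi. The groups overlapped through De-HA 1, and the difference of 0.57 ± 0.20 (SE) did not pass (limma adjusted p = 0.106). It passed under normexp (0.42, adjusted p = 0.0326) and without De-HA 1 (0.79, adjusted p = 0.0402). Cenpp, which spans the run, read 290, 374 and 294 in De-HA and 417, 487 and 445 in FeMnSi. De-HA was lower on every array, by -0.34 ± 0.10 (SE), but this did not pass (limma adjusted p = 0.0787). Ippk, an inositol phosphate kinase gene, differed by 0.23 ± 0.087 (SE; limma adjusted p = 0.119). Iars, an aminoacyl-tRNA synthetase gene, differed by -0.36 ± 0.15 (SE; limma adjusted p = 0.142), and passed only without FeMnSi 1 (adjusted p = 0.0292). The neighbour that passed was Btg2, an antiproliferative gene beside Fmod on chromosome 1, which fell by 0.98 ± 0.23 on the log2 scale (limma adjusted p = 0.0443). Its signals were 758, 818 and 1216 in De-HA and 1810, 2512 and 1789 in FeMnSi. Blocking by slide gave an adjusted p of 0.237, and leaving out single arrays gave 0.0394 to 0.127, passing without De-HA 3 or without FeMnSi 1.

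**Figure D3:**
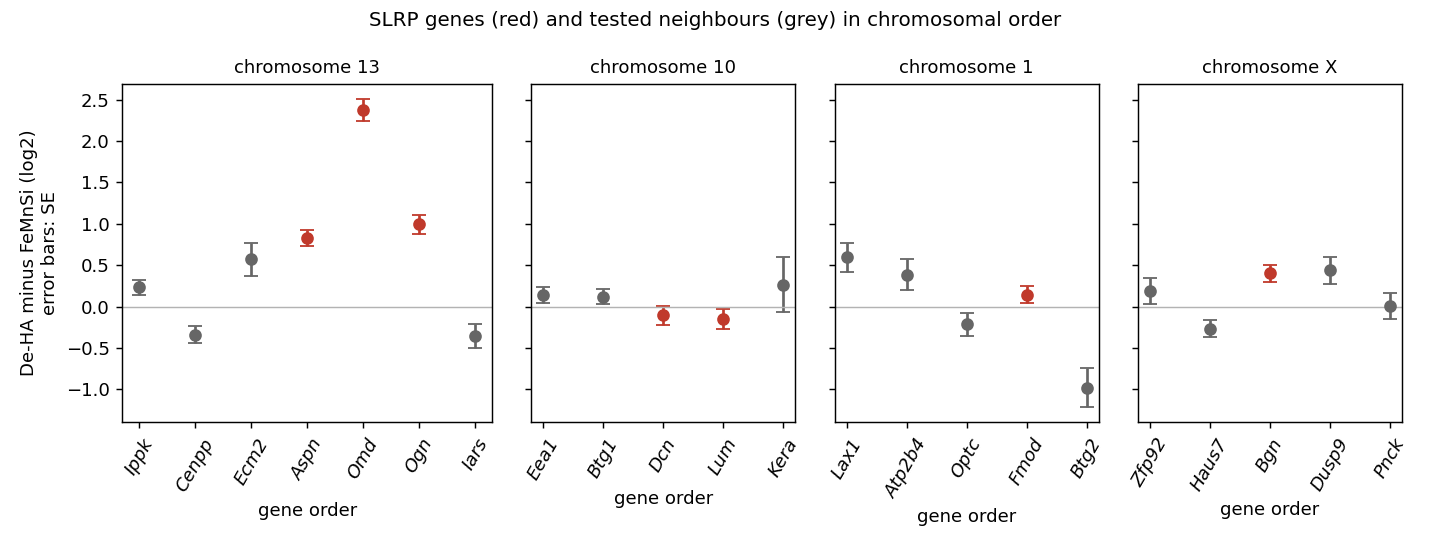
Difference between De-HA and FeMnSi (log2 scaled signal, with SE) of the members and the tested neighbouring genes, placed in gene order on each chromosome, without distances, with members in red and neighbours in grey. On chromosome 13, Aspn, Omd and Ogn stand above the neighbours Ippk, Cenpp and Iars, and Ecm2, at 0.57, lies between. The members, unlike the neighbours, were chosen by this contrast.

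Other members of the leucine-rich proteoglycan family did not pass the test. Of 10 relatives listed, 8 were tested and 0 passed in limma, beside 10.7% of all genes, a share at which a list this short would hold few or none. At an unadjusted p under 0.05, 1 did (Ecm2). Their median difference was 0.18, beside 0.10 over all genes. Chad, the cartilage protein chondroadherin, read 42.9, 48.3 and 55.6 in De-HA and 35.1, 48.2 and 47.4 in FeMnSi (0.34 ± 0.16, SE; limma adjusted p = 0.173). Kera, the corneal protein keratocan and the gene after Lum on chromosome 10, has 10 spots per array. It read 99.9, 125 and 101 in De-HA and 162, 66.8 and 94.1 in FeMnSi, so FeMnSi 1 was the highest and FeMnSi 2 the lowest of the 6. The spots within an array spread by an SD of 0.084 to 0.19 log2 units. The difference of 0.26 ± 0.33 (SE) did not pass (limma adjusted p = 0.590). It was -0.50 on slide 1, -0.06 without FeMnSi 2, and 0.65 without FeMnSi 1, where it passed (adjusted p = 0.0382) but group and slide coincide. Podn, podocan, likewise had its highest signal on FeMnSi 1: 233, 335 and 332 in De-HA, and 538, 373 and 293 in FeMnSi, with a difference of -0.23 ± 0.27 (SE). Optc (-0.22), Tsku (0.17), Chadl (0.20) and Podnl1 (0.06) overlapped between the groups. Epyc and Nyx were each well above background on 1 array and were not tested.

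Collagens, the main binding partners, included 3 of 13 tested chains that rose and 0 that fell in De-HA, beside 6.46% of all genes that rose. The lists of relatives, partners and markers were chosen with earlier results of these data known. No excess over all genes is read from their counts. The median difference of the collagen list was 0.28, or 0.09 after quantile normalization. Col2a1, the main fibril collagen of cartilage, was 2.16-fold higher (1.11 ± 0.091, SE; limma adjusted p = 0.00234). Its signals were 6552, 7100 and 5753 in De-HA and 3356, 3239 and 3408 in FeMnSi, without overlap, and its call held with slide blocking (adjusted p = 0.0256) and without any one array. Col11a1, which helps start fibrils, rose by 0.75 ± 0.12 (SE; limma adjusted p = 0.0165) and lost the call with the slide block (adjusted p = 0.115) and without De-HA 2, De-HA 3 or FeMnSi 3 (up to 0.0750). Col5a1, with a similar role beside collagen I, rose by 0.39 ± 0.093 (SE; limma adjusted p = 0.0432). That was 0.20 and not past the threshold after quantile normalization (adjusted p = 0.172), and among the fits without 1 array it passed only without FeMnSi 1 (0.0324 to 0.159). Col1a1, the main collagen of bone, differed by 0.44 ± 0.13 (SE), which did not pass (limma adjusted p = 0.0771), and by 0.08 after quantile normalization.

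Enzymes that process collagen or the proteoglycans included 3 of 14 tested genes that rose and 0 that fell, beside 6.46% and 4.29% of all genes. The median difference was 0.22, beside 0.10 over all genes. Pcolce2, an enhancer of procollagen C-proteinase, was 2.48-fold higher (1.31 ± 0.11, SE; limma adjusted p = 0.00242). It read 625, 766 and 538 in De-HA and 270, 309 and 283 in FeMnSi, and kept its call with the slide block (adjusted p = 0.0287) and without any one array. Pcsk6, a proprotein convertase, rose by 1.04 ± 0.11 (SE; limma adjusted p = 0.00687) on a dim probe that read 26.6, 28.9 and 23.5 against 14.7, 12.9 and 15.3, and by 0.38 under normexp (adjusted p = 0.0270). With the slide block its adjusted p was 0.0526. Htra1, a secreted serine protease that cleaves several of these proteoglycans, rose by 0.66 ± 0.11 (SE; limma adjusted p = 0.0195). It lost the call with the slide block (adjusted p = 0.124), and among the fits without 1 array passed only without FeMnSi 1 (0.0101 to 0.0858). Bmp1, the C-proteinase that trims probiglycan and pro-osteoglycin, differed by 0.25 ± 0.080 (SE; limma adjusted p = 0.0858), so its change did not pass while that of its enhancer Pcolce2 did. That pair was not tested against each other.

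Receptors and ligands known to bind these proteins held 3 of 18 tested that rose and 0 that fell, beside 6.46% and 4.29% of all genes, with a median of 0.25 beside 0.10. Bmp4, a bone morphogenetic protein, read 3808, 3284 and 3158 in De-HA and 2262, 2678 and 2429 in FeMnSi and rose by 0.64 ± 0.10 (SE; limma adjusted p = 0.0165). Lrp6, a Wnt co-receptor, rose by 0.56 ± 0.088 (SE; limma adjusted p = 0.0153), with probes of the gene at 0.33 to 0.56. P2rx4, an ATP-gated channel, rose by 0.66 ± 0.14 (SE; limma adjusted p = 0.0350). None of the 3 calls held with the slide block, where the adjusted p was 0.0866 for Bmp4, 0.104 for Lrp6 and 0.213 for P2rx4. Leaving out 1 array, Bmp4 passed in 4 of 6 fits (lost without De-HA 3 or FeMnSi 3, up to 0.0754), Lrp6 in 2 (without FeMnSi 1 or FeMnSi 2, otherwise up to 0.0741) and P2rx4 in 1 (without FeMnSi 1, otherwise up to 0.127). Tgfb1, the ligand that decorin and asporin bind, differed by -0.17 ± 0.12 (SE) on a dim probe, did not pass (limma adjusted p = 0.348) and was -0.0017 under normexp.

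Genes that build the sugar chains passed at a share near that of all genes, of which 10.7% passed. Of 22 tested genes of chondroitin and dermatan sulfate synthesis, the chains of Bgn and Dcn, 2 rose and 0 fell, with a median of 0.10, the same as all genes. Csgalnact1, which starts chondroitin chain growth, rose by 0.40 ± 0.093 (SE; limma adjusted p = 0.0423). Xylt2, which adds the first xylose, rose by 0.50 ± 0.12 (SE; limma adjusted p = 0.0461), while another probe of it gave -0.02. Neither passed after quantile normalization (adjusted p of 0.0533 and 0.0660) or with the slide block (0.257 and 0.295). Of 11 tested genes of keratan sulfate synthesis and tyrosine sulfation, the modifications of Fmod, Lum and Omd, 0 rose and 1 fell. That gene, Fut8, makes the core fucose of N-glycans. It read 214, 195 and 205 in De-HA and 354, 474 and 416 in FeMnSi and fell by 0.85 ± 0.11 on the log2 scale (limma adjusted p = 0.0108). Its adjusted p was 0.0788 with the slide block and 0.0545 without FeMnSi 3. Among 19 tested other matrix and cell-surface proteoglycans, 3 rose and 0 fell, with a median of 0.12 (0.01 after quantile normalization). They were Spock2, a testican (0.66 ± 0.13, SE; limma adjusted p = 0.0292), Sdc4, a syndecan (0.45 ± 0.094, SE; 0.0327), and Gpc4, a glypican (0.51 ± 0.12, SE; 0.0442). These calls were lost with the slide block (limma adjusted p of 0.145, 0.104 and 0.276). Without 1 array each of the 3 passed only without FeMnSi 1, with up to 0.108, 0.109 and 0.148 otherwise. The one-sided count depended on the scaling. Srgn (-0.85, limma adjusted p = 0.0560) and Vcan (-0.35, 0.0710, another probe at 0.098) were lower with the groups apart but did not pass. Srgn passed with quantile, median and matrix values, and Vcan with quantile normalization. Sdc4 passed with none of these (limma adjusted p of 0.0650, 0.0728 and 0.0586), and Gpc4 not with median scaling (0.0864).

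**Figure D4:**
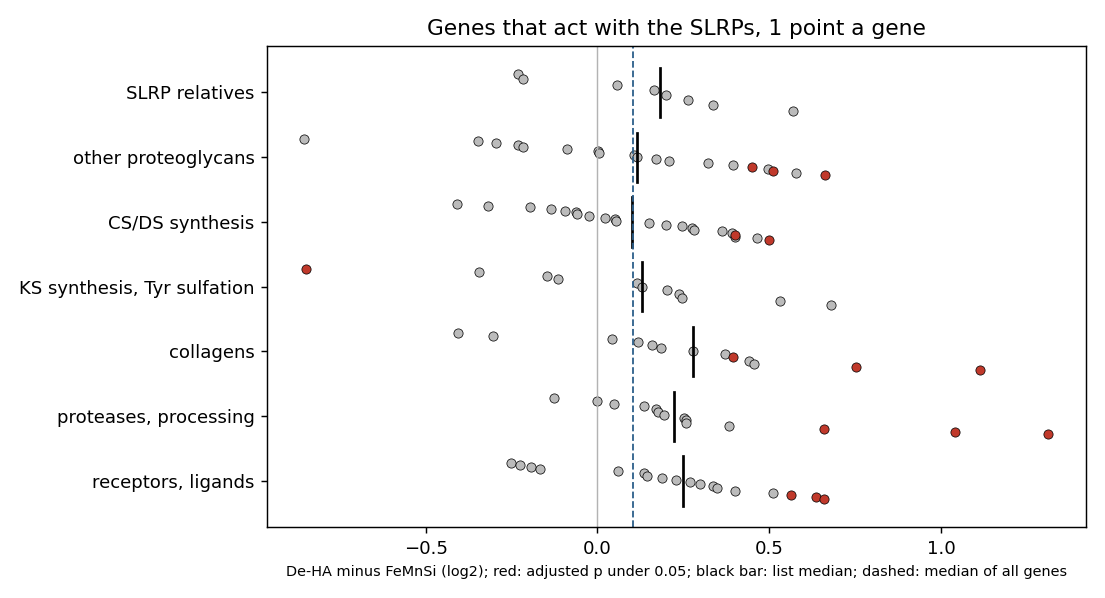
Difference between De-HA and FeMnSi (log2 scaled signal) of each tested gene in the lists of relatives and partners, 1 point per gene, with genes past an adjusted p of 0.05 in red, a black bar at each list's median and a dashed line at the median of all genes, 0.10. The genes that passed lie above 0 except Fut8, in the keratan sulfate (KS) list; CS/DS stands for chondroitin and dermatan sulfate.

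Some markers of bone and of other cell types also differed between the groups, beside 6.46% of all genes that rose and 4.29% that fell. These lists too were chosen with earlier results known, so no excess is read from the counts. Of 8 osteoblast markers, 4 rose and 0 fell: Ibsp, bone sialoprotein (0.79, limma adjusted p = 0.0112), Alpl, alkaline phosphatase (0.85, 0.0204), and the transcription factors Sp7 (0.64, 0.0308) and Runx2 (0.56, 0.0309). These calls were lost with the slide block (limma adjusted p of 0.0821, 0.140, 0.207 and 0.152). The count covers the 8 listed genes alone. Spp1, the osteopontin gene, was not on the list and went the other way, with a difference of -1.09. Ibsp has probes at 0.17 and 0.79, and their mean did not pass (0.48, adjusted p = 0.0569). Alpl was 0.47 under normexp. Among the fits without 1 array, Ibsp passed in 4 (lost without De-HA 3 or FeMnSi 3, up to 0.0562), and Alpl, Sp7 and Runx2 each in 1, that without FeMnSi 1. The list's summed scaled signal was 122% to 162% of the FeMnSi mean on De-HA arrays and 95.5% to 103% on FeMnSi arrays. Col1a1, which did not pass, was by far the brightest member and carried most of that sum.

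Of 6 smooth muscle markers, 5 were tested and 3 rose: Acta2, smooth muscle actin (1.54, limma adjusted p = 0.000934), Tagln, transgelin (1.35, 0.00135), and Cnn1, calponin (0.50, 0.0320). Acta2 and Tagln passed with the slide block (adjusted p of 0.00852 and 0.0152) and without any one array. Cnn1 was dim and was lost with the slide block (adjusted p = 0.203) and after quantile normalization (0.27, adjusted p = 0.238). The list's sums were 192% to 213% on De-HA arrays against 82.6% to 113% on FeMnSi arrays. Of 8 chondrocyte markers, 4 were tested and Col2a1 alone passed, with sums of 142% to 147% against 98% to 101%, while Acan, Matn1, Hapln1 and Comp had no probe past the background filter.

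Of 5 tenocyte markers, 3 were tested and 0 passed in limma (1 at an unadjusted p under 0.05). Their sums, 44.9% to 81.9% against 93.2% to 105%, were mostly the signal of Egr1, an immediate early gene (-0.85, limma adjusted p = 0.0628), while Mkx and Scx differed by -0.04 and 0.02. Egr1 did pass with quantile, median, matrix and normexp values and with the filter on all 6 arrays. It did not pass with the slide or replicate block, and among the fits without 1 array only without De-HA 3. Tnmd and Thbs4 had no probe past the filter. Of 7 adipocyte markers, 5 were tested and Fabp4, a fatty acid binding protein, alone passed. It fell by 1.99 on the log2 scale (limma adjusted p = 0.00170), and the difference was -0.87 under normexp. The sums were 69.2% to 78.6% against 91.9% to 107%, but the median difference of the list was 0.29, with Lpl at 0.94, Cfd at 0.38, Plin1 at 0.29 and Pparg at 0.00086. Adipoq and Cidec had no probe past the filter.

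Of 6 endothelial markers, 2 were tested and Kdr, a VEGF receptor, rose (0.41, limma adjusted p = 0.0272), with sums of 126% to 139% against 98.5% to 102%. Of 6 myeloid markers, 5 were tested: Adgre1 (0.77, limma adjusted p = 0.0138) and Ptprc (0.55, 0.0432) rose and Lyz2 fell (-0.39, 0.0470), with sums of 116% to 130% against 86.3% to 123%. With the slide block all of these calls were lost, with adjusted p of 0.146 for Kdr, 0.0711 for Adgre1, 0.278 for Ptprc and 0.166 for Lyz2. Ptprc was also lost after quantile normalization (0.37, adjusted p = 0.119), and Lyz2 under normexp (-0.03, adjusted p = 0.777). Cnn1, Kdr, Ptprc and Lyz2 each passed in 1 of the 6 fits without 1 array, that without FeMnSi 1, and Adgre1 in 4 (lost without De-HA 2 or De-HA 3, up to 0.0631). The 3 keratocyte markers, cells in which Kera and Lum are typical products, were tested and 0 passed in limma (0 at an unadjusted p under 0.05), with sums of 95.1% to 103% against 88% to 122%. The part of these cell type markers in the values of Omd, Ogn, Aspn and Bgn was not tested.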

How the data were processed

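Per the submitters' processing notes, scans went through Agilent Feature Extraction 11.0.1.1. The deposited intensity values per spot had background subtraction and spatial detrending, array by array, per the file headers. The authors' series matrix holds log2 values whose quantiles match between arrays. Their r of 0.997 to 1.00 with the log2 scanner signals bears out the direction, but r does not depend on the scale. How the matrix was made is not given in the sources used here. The matrix was an alternative.

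Here, log2 processed signals were shifted by each array's 75th percentile. Of 44397 spots, 1377 controls and the spots marked as outliers were left out, and spots of a probe were averaged. Probes were named by RefSeq accession in the GRCm38.p6 table (27234 of 28684 matched); the array design was annotated to another build, so the only coordinates given are those of the RefSeq windows before gene starts. Kept probes were well above background on 3 or more of 6 arrays, and the brightest probe stood for a gene. The groups were compared over 15535 genes in limma 3.58.1 (R 4.3.3; lmFit, eBayes), with Benjamini-Hochberg adjustment. The script was tested on simulated data. The package data.table (1.17.8), pandas 2.3.3, Python 3.11.15 and matplotlib 3.10.9 were also used.

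The members and lists were chosen with earlier results of these data known. Genes named are all members, up to 4 members of each list past the threshold with the smallest p (or the 2 smallest), the tested neighbours of the Omd region, the 5 most and least like Omd, and Tgfb1, Bmp1, Col1a1, Runx2 and Sp7; the other relatives, Lpl, Cfd, Plin1 and Pparg were named beyond this. Alternatives were other scaling, the matrix, normexp, filters, probe averaging, slide and replicate blocks and leaving out arrays. Normexp (offset 50) used the median spot signal in place of the mean, and local backgrounds over 3 array medians were set to the median.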

Additional observations from a re-analysis of the deposited data

How the results depend on the processing

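Omd ranged from 2.23 to 2.44 over 16 alternatives, Ogn from 0.87 to 1.19, Aspn from 0.59 to 0.93 and Bgn from 0.24 to 0.48, with no change of sign. Some of the 16 left the members' differences unchanged: the other filters, outlier spots kept and the replicate block. The median over the members was 0.24 with the slide as a block or slide 1 alone and within the spread otherwise. The slide block rests on FeMnSi 1 as the only FeMnSi array on slide 1. Without FeMnSi 1, group and slide coincide, so counts from that fit cannot separate material from slide. All genes past the threshold numbered 1669, but 519 without a filter, 180 with the slide block, 36 on slide 1, 693 with the replicate block and 227 to 4611 leaving out 1 array (4611 without FeMnSi 1). The share of calls that were higher was 60.1%, against 37.3% with median scaling, 39.3% with quantiles matched, 41.3% in the matrix and 68.9% under normexp. With the slide block, counts were 0 for other proteoglycans, chondroitin synthesis, keratan synthesis, receptors and neighbours and 1 for collagens and for proteases; on slide 1 all were 0. With the replicate block they were 0 for other proteoglycans, chondroitin synthesis and neighbours and 1 for collagens and receptors. Chondroitin synthesis had 0 with quantile, median or matrix values and 1 when the probes of a gene were averaged, where keratan synthesis had 2 and receptors 5. Without a filter, other proteoglycans, chondroitin synthesis and neighbours had 0. With all 6 arrays above background, other proteoglycans and receptors had 5. With normexp, relatives had 1, neighbours 2 and receptors 6. Leaving out 1 array gave 0 to 1 for relatives, 0 to 7 for other proteoglycans, 0 to 8 for chondroitin synthesis, 0 to 4 for keratan synthesis, 1 to 6 for collagens, 0 to 6 for receptors and 0 to 5 for neighbours; the highest came without FeMnSi 1, which relatives shared with De-HA 1. Among tested relatives, none past the threshold, the sign turned for Chadl (-0.17) and Tsku (-0.0051) with the slide block or slide 1, for Kera (-0.50 with either; -0.058 to 0.65 leaving out 1 array, lowest without FeMnSi 2), for Podn (-0.45 to 0.045 leaving out 1 array, positive without FeMnSi 1) and for Podnl1 (-0.079 with the slide block or slide 1, -0.037 with quantile normalization, -0.035 in the matrix, -0.029 with median scaling, and -0.037 to 0.13 leaving out 1 array, negative without FeMnSi 3). Replicate numbers did not pair the samples: the correlation of same-numbered deviations was 0.0070, -0.11 and 0.12. Pcsk6, Lyz2, Fabp4 and Tgfb1 had low signals and moved with the background correction.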
